A study of Homo sapiens with 3 samples.

Results

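Decorin (DCN) and 9 other genes for secreted matrix glycoproteins were followed in 2 glioblastoma clones on 3 arrays: lumican (LUM), biglycan (BGN), fibromodulin (FMOD), versican (VCAN), fibronectin (FN1), tenascin C (TNC), SPARC, periostin (POSTN) and fibrillin 1 (FBN1). The list was chosen by the clone ratio of DCN, which was among the genes with the highest signal in U87WT relative to U87Mut on these same arrays, so the clone ratios of DCN and of the genes beside it describe the choice and are no independent result. The 10 genes are read by 11 of 58201 probes and belong to 25006 genes that could be named. Both clones come from U-87MG (U87), an established human glioblastoma line, and each is 1 stable clone selected after transfection and overexpressing the IGF1 receptor fused to GFP. U87WT 5 carries GFP-IGF1R, labelled as nuclear, and U87Mut 5 carries GFP-IGF1R1025x-1100x-1120x, labelled as non-nuclear, in which the lysines needed for SUMOylation were replaced by arginine. Each array held RNA of U87WT in Cy5 and of U87Mut in Cy3, from cells kept 24 h without FBS, with 50 nM IGF1, or with IGF1 and OSI906, an inhibitor of the kinases of the IGF1 and insulin receptors. The OSI906 dose is 0.5 μM in the sample name and 500 μM in the description of the medium; the first is the dose of the methods. The labels give 24 h for each sample, while a heading in the study's supplements names a shorter time for IGF1.

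Decorin, lumican, biglycan and fibromodulin are small leucine-rich proteoglycans, horseshoe-shaped proteins that sit on collagen fibrils and set their width and spacing. Versican is a large chondroitin sulfate proteoglycan that binds hyaluronan, fibronectin and fibrillin form the fibers to which cells attach, and tenascin C, SPARC and periostin are matricellular proteins, which tune adhesion rather than build the scaffold. Tenascin C, fibronectin, versican and SPARC are known parts of the matrix of glioblastoma, and soluble decorin is known to bind TGF-beta and several receptor tyrosine kinases, the IGF1 receptor among them.

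With 1 array per condition and no dye swap, no value below has a replicate error or a p-value. A dye bias of a gene cannot be told apart from a difference between the clones. Likewise a difference between conditions cannot be told apart from a difference between arrays. In place of a test, a log2 ratio or difference was called when it passed 0.5 in either direction, and each count of the 10 genes is set beside the share of all named genes called in the same way. The log2 ratio of repeated spots of 1 probe had a median SD of 0.04 to 0.07 by array and brightness, and the SD of a single ratio was 0.144 over the 27683 probes well above background, taken from the FBS-free array against the array with OSI906. That SD holds array noise and response to the treatment together. Median brightness was 33 to 35 in Cy5 and 30.5 to 33.5 in Cy3 over a local background of 21 or 22, and no spot was saturated. On the IGF1 array 572 spots were marked as not uniform, and 27 spots had a Cy5 background far above that of the rest. Fitted without the marked spots, the Cy5 background had an SD of 1.32, and fitted on all spots, of 701. The values below leave the marked spots out of that fit, and the value with all spots is given where it changes a call or much of the size. IGF1R itself had a clone log2 ratio of 0.07, 0.23 and 0.09 in FBS-free medium, with IGF1 and with IGF1 and OSI906. Its probe was not compared with the changed lysines, so it does not check which receptor a clone carries.

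Start sites of 8 of the 10 genes were matched in RefSeq (GRCh38.p14). The 250 bases before the start of VCAN, FN1, TNC and SPARC are shown because these genes, of the 8, were called between arrays in both clones. Capitals mark matches, on either strand, to 5 short motifs: a TATA box (TATAAA), a GC box (GGGCGG), an AP-1 site (TGANTCA), a cAMP response element (TGACGTCA) and a FOXO site (GTAAACA).
VCAN, chr5:83471494-83471743, plus strand: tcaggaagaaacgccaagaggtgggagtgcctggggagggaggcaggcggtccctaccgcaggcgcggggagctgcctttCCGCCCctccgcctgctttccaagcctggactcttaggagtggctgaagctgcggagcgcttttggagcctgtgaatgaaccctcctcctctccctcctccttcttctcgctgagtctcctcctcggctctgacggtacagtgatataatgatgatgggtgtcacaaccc
FN1, chr2:215436069-215436318, minus strand: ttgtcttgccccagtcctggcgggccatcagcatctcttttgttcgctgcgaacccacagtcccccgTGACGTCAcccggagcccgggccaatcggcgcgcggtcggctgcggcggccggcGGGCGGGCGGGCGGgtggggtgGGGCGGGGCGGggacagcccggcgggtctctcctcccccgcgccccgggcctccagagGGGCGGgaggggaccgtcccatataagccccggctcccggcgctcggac
TNC, chr9:115118158-115118407, minus strand: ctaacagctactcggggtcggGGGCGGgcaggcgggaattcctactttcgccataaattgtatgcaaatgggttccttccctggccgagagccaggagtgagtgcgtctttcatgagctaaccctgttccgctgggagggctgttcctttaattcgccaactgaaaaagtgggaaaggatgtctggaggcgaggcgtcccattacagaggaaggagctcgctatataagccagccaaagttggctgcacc
SPARC, chr5:151686916-151687165, minus strand: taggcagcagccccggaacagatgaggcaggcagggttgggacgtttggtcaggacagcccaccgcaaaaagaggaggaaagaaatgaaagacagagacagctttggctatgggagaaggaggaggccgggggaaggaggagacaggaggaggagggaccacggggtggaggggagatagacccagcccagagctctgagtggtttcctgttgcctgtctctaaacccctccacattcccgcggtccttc

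The FN1 window held 1 match to the cAMP response element, which ends 175 bases before the start, and 6 to the GC box, some of which overlap each other. The cAMP response element was found in 1.65% and the GC box in 42.6% of all 35116 windows of that length. VCAN and TNC each held 1 GC box and SPARC none of the 5 motifs. AP-1 sites, in 6.57% of windows, and FOXO sites, in 2.98%, had no match in the 4 windows shown. The TATA box letters, in 10.7% of windows, had none there either. A match says only that these letters are present, and the absence of one says nothing about the factor.

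In FBS-free medium DCN, SPARC, LUM and FN1 were higher in U87WT and TNC was lower. The other 5 genes stayed within the limit in the processing used here, but FMOD passed it in 5 of 11 settings and BGN in 2. DCN was 6.17-fold, SPARC 2.75-fold, LUM 2.11-fold and FN1 1.60-fold higher in U87WT, and TNC was 1.88-fold higher in U87Mut. The 4 of 10 genes above the limit compare with 4.08% of all named genes, and the 1 below it with 3.77%, but the choice of DCN used this contrast and nothing is read from the difference. With IGF1, DCN, LUM, SPARC and FMOD lay above the limit (4.77% of named genes) and TNC below it (2.93%). With IGF1 and OSI906 the genes above it were again DCN, LUM, SPARC and FN1 (3.6%), and TNC was again below (3.48%). DCN, LUM and SPARC passed the limit on all 3 arrays, as 1.94% of named genes did, and TNC in the other direction, as 1.48% did. The median log2 ratio of the 10 genes was 0.34, 0.28 and 0.33 in the 3 conditions, and that of all named genes was within 0.01 of 0 on each array. All 6 channels read 7 of the 10 genes well above background, the exceptions being BGN, FMOD and POSTN. Among the 15352 genes as bright as those 7, the shares above and below the limit were 6.38% and 6.12% in FBS-free medium, 7.33% and 4.72% with IGF1, and 5.75% and 5.65% with OSI906, and on all 3 arrays 3.1% and 2.4%.

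**Figure D1:**
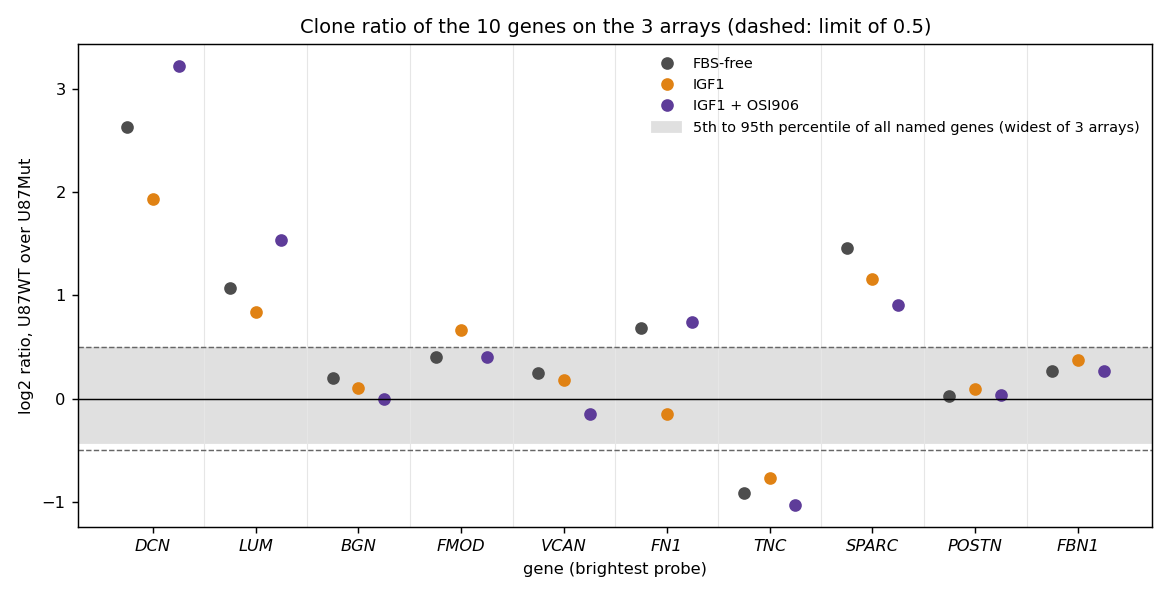
Clone log2 ratio (y axis, U87WT over U87Mut) of the 10 genes (x axis) on the FBS-free, IGF1, and IGF1 and OSI906 arrays, 1 point per array, over the 5th to 95th percentile of all named genes in grey. DCN, LUM and SPARC lie above the dashed limit of 0.5 on all 3 arrays and TNC lies below -0.5 on all 3, while FN1 falls between the limits on the IGF1 array alone.

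DCN had a log2 level of 9.83 in U87WT in FBS-free medium, 8.76 with IGF1 and 10.79 with IGF1 and OSI906. In U87Mut the same levels were 7.21, 6.82 and 7.58. In both clones the lowest of these levels was the one with IGF1 and the highest the one with OSI906. The spots themselves read 946.5, 441 and 1677.5 in Cy5 and 134.5, 63 and 145.5 in Cy3, over a local background of 21 to 24. The clone log2 ratio was 2.63, 1.94 and 3.22, which placed DCN 4th of 25004, 29th of 25002 and 1st of 25004 named genes and 3rd by the mean of the arrays. The value on the IGF1 array is the least certain of the 3: with all spots in the background fit it was 0.58, and 0.61 in the deposited table of ratios. A second probe, for another transcript of DCN, was dimmer. It read 77, 44 and 153 in Cy5 and 26, 26.5 and 33 in Cy3, and in U87Mut it was well above background only with OSI906. In the processing used here, DCN by this probe was at least 1.83-fold higher in U87WT in FBS-free medium and at least 1.21-fold with IGF1. Its log2 ratio with OSI906 was 1.46. The bound with IGF1 depends on the processing: the log2 ratio of this probe was 0.028 with all spots in the background fit and 0.026 in the deposited table. Both probes gave the same order of conditions in U87WT.

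LUM, the neighbor of DCN on chromosome 12 and a keratan sulfate proteoglycan of the same family, followed DCN in direction with smaller values. Its log2 level was 8.28, 7.64 and 9.001 in U87WT and 7.21, 6.80 and 7.47 in U87Mut. The clone log2 ratio was 1.08, 0.84 and 1.53. With all spots in the background fit the ratio on the IGF1 array was 0.16, within the limit.

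BGN and FMOD, the other members of that family on the list, were faint. BGN had log2 levels of 6.12, 6.11 and 6.10 in U87WT and 5.92, 6.01 and 6.11 in U87Mut. Its spots were only 14 to 15 brightness units over their local background in Cy5 and 4.5 to 13 in Cy3, so no condition stands out. BGN was not well above background in U87Mut except with OSI906. In the processing used here BGN measured 1.15-fold higher in U87WT in FBS-free medium and 1.07-fold with IGF1. As log2 ratios these were 0.20 and 0.10, against an SD of 0.144 for a single ratio, so no least difference is drawn from them. The value with IGF1 also depends on the processing. It was 0.010 as a log2 ratio with all spots in the background fit and 0.0072 in the deposited table. FMOD, which like lumican carries keratan sulfate, had levels of 6.30, 6.81 and 6.41 in U87WT and 5.90, 6.15 and 6.004 in U87Mut. Of the U87Mut levels only that with IGF1 was well above background. The bound was at least 1.32-fold higher in U87WT in FBS-free medium and at least 1.32-fold with OSI906. The log2 ratio with IGF1, where both channels were well above background, was 0.67. That ratio was 0.08 with all spots in the background fit. In FBS-free medium the FMOD log2 ratio was 0.40 here, 0.63 in the deposited table and 1.43 with an offset of 0. It was past the limit there in 5 of 11 settings, and with OSI906 also in 5 of 11.

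SPARC, a collagen-binding counter-adhesive protein, gave bright spots, 10274 to 19222 in Cy5 and 2758 to 6536.5 in Cy3. Its log2 level was 14.03, 13.05 and 13.52 in U87WT and 12.57, 11.89 and 12.61 in U87Mut. The clone log2 ratio was 1.46, 1.16 and 0.91. The ratio on the IGF1 array was 1.13 with all spots in the fit and 1.17 in the deposited table, but 1.75 when the median replaced loess.

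TNC, a hexameric glycoprotein of remodeling and tumor matrix that weakens attachment to fibronectin, ran the other way. Its log2 level was 10.00, 10.71 and 9.65 in U87WT and 10.91, 11.49 and 10.68 in U87Mut. In each condition U87Mut was higher, although the U87WT level with IGF1 exceeded the U87Mut level with OSI906. The log2 ratio was -0.91, -0.77 and -1.03. On the IGF1 array it was -0.96 with all spots in the fit and -0.28, within the limit, when the median replaced loess. With that replacement the median ratio of all bright genes was 0.30 on the IGF1 array and -0.17 on the FBS-free array, in place of 0.02 and -0.01.

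FN1 had a clone ratio past the limit on 2 of the 3 arrays. Its log2 level was 8.83, 7.67 and 9.08 in U87WT and 8.15, 7.81 and 8.34 in U87Mut. U87WT was above U87Mut in FBS-free medium and with OSI906 but not with IGF1, and the log2 ratio was 0.68, -0.14 and 0.74. The sign on the IGF1 array rests on the normalization, since the ratio was 0.11 when the median replaced loess. The ratio stayed within the limit in each of the 11 settings compared, the one used here included. These are not 11 independent checks, since leaving out normalization between arrays cannot change a clone ratio. A background fit without the spots marked in the same channel only also gave almost the same values.

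VCAN, FBN1 and POSTN showed little difference between the clones. VCAN had log2 levels of 8.38, 7.70 and 8.11 in U87WT and 8.14, 7.52 and 8.25 in U87Mut, so that its ratio of 0.25, 0.18 and -0.14 was within the limit throughout. Its sign was not settled on the first 2 arrays, since it was -0.0073 in FBS-free medium when the median replaced loess and -0.011 with IGF1 with all spots in the background fit. FBN1, the core protein of microfibrils, had levels between 8.29 and 8.36 in U87WT and between 7.92 and 8.08 in U87Mut. Its ratio of 0.27, 0.37 and 0.27 was above 0 on all arrays and within the limit, though on the IGF1 array it ran from 0.0018 in the deposited table to 0.65 when the median replaced loess. POSTN was well above background in no channel, with spots at most 5 units over the local background, and no ratio is drawn from it.

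**Figure D2:**
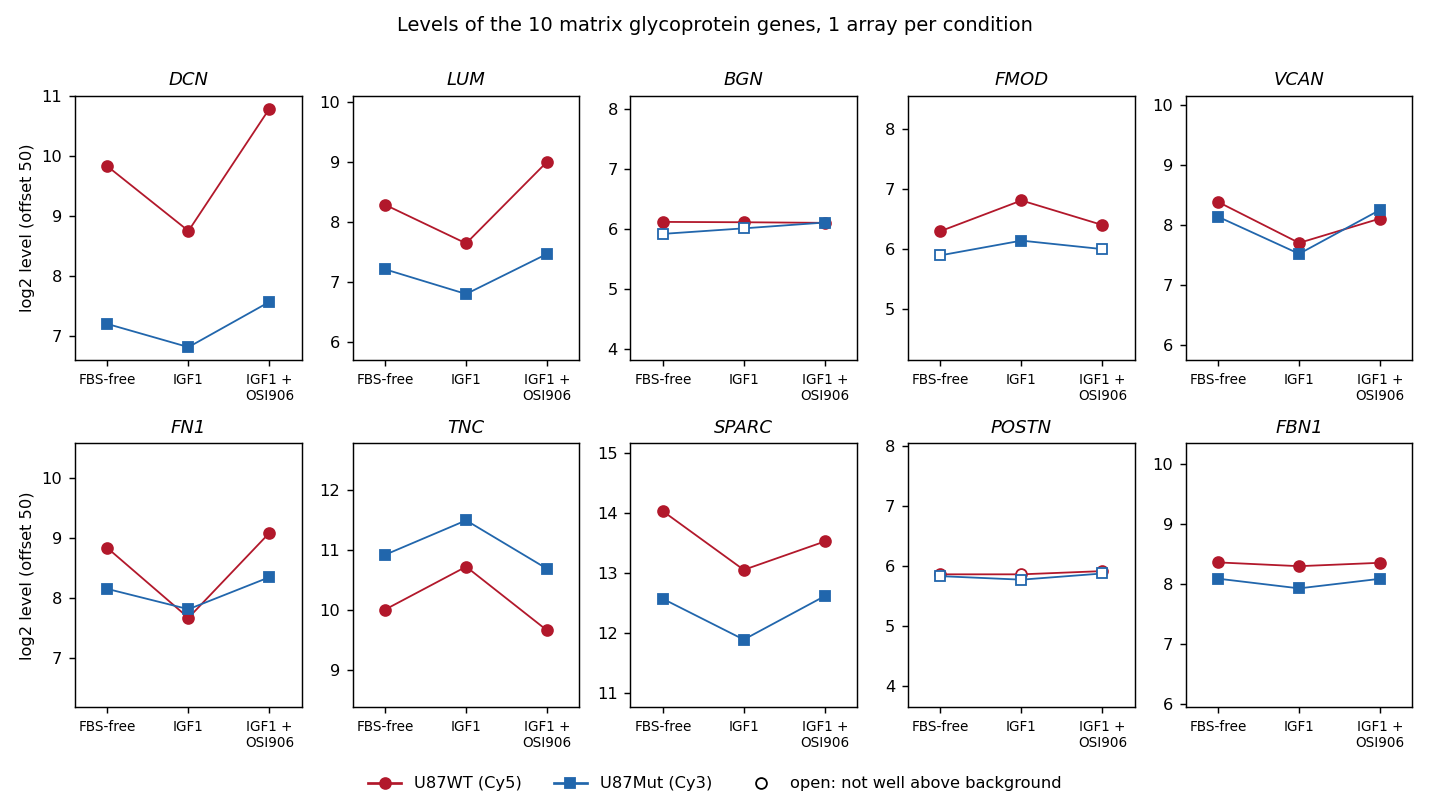
Log2 level (y axis, offset 50, each panel spanning the same range) of the 10 genes in U87WT (circles) and U87Mut (squares) by condition (x axis), 1 array per condition, with open symbols where the spot was not well above background. The DCN, LUM, VCAN, FN1 and SPARC lines dip at IGF1 in both clones, the TNC lines peak there, and the FBN1, BGN and POSTN lines are close to flat. Heights are not comparable between panels.

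The second comparison was of the IGF1 array with the FBS-free array in each clone. In U87WT 5 of the 10 genes were lower with IGF1 than without FBS, FN1 and DCN most, then SPARC, VCAN and LUM, and 2 were higher, TNC and FMOD. Of all named genes 1.74% were lower and 1.53% higher by the same limit. Among the bright genes these shares were 2.69% and 2.14%. In U87Mut VCAN and SPARC were lower (1.03% of named genes) and TNC higher (0.576%; 1.67% and 0.867% among bright genes), and DCN, LUM and FN1 differed in the same direction within the limit. VCAN and SPARC were lower in both clones, as 0.332% of named genes were, and TNC was higher in both, as 0.116% were. The median difference of the 10 genes was -0.35 in U87WT and -0.25 in U87Mut, against 0.00 and -0.01 over all named genes. The choice of DCN as a gene high in U87WT did not use these differences directly, but they share its arrays.

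In U87WT the FN1 level with IGF1 was 2.24-fold lower than in FBS-free medium, a log2 difference of -1.16, while in U87Mut the difference was -0.34. For DCN the differences were -1.08 and -0.39. LUM gave -0.64 in U87WT and -0.41 in U87Mut. These 3 genes were thus past the limit in U87WT and within it in U87Mut, but the second part depends on the processing. Of 10 settings, the one used here included, the U87Mut difference was past the limit in 6 for DCN, down to -0.98, in 6 for LUM, down to -0.91, and in 2 for FN1. With all spots in the background fit the DCN differences were -2.10 in U87WT and -0.088 in U87Mut, and those of LUM -1.14 and -0.25. The difference between the clones, which is the change of the clone ratio, was itself past the limit for DCN at -0.69 and FN1 at -0.82 (1.52% of named genes were below the limit), and within it for LUM at -0.23. With the median in place of loess it was -0.17 for DCN and -0.31 for FN1, so that neither passed, and 0.19 for LUM, with the sign turned. Of 11 settings, the one used here included, the change was past the limit in 8 for DCN and in 10 for FN1. These counts include settings that repeat the ratios used here, such as no normalization between arrays, so they overstate the number of separate checks. DCN was also within it with an offset of 0, with ratios of 3.09 in FBS-free medium and 2.71 with IGF1, and with the processed intensities, at 3.24 and 2.98. The change was larger in the deposited table, at -2.23 for DCN and -1.03 for LUM, and LUM was at -0.89 with all spots in the background fit, so that LUM passed in both. With the median in place of loess the median change over all bright genes was itself 0.56, against 0.04 in the processing used here, and relative to that 0.56 all 3 genes stayed lower.

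SPARC and VCAN did not set the clones apart in this way. SPARC was lower with IGF1 by a log2 difference of -0.98 in U87WT and -0.68 in U87Mut. VCAN differed by -0.68 and -0.62, the second being -0.47, within the limit, with all spots in the background fit. TNC was higher by 0.71 in U87WT and 0.57 in U87Mut. The change of the clone ratio of these 3 genes was -0.30, -0.07 and 0.14 in that order, all within the limit, but with the median in place of loess it was 0.43, 0.43 and 0.90, beside the median of 0.56 over all bright genes. The TNC spots in Cy3 read 2155 in FBS-free medium and 2159 with IGF1, so the U87Mut difference of that gene appears only after normalization, and it ranged from 0.19 to 0.67 over the 10 settings that give levels. FMOD was higher with IGF1 in U87WT by 0.51, just past the limit, which turned to -0.084 with all spots in the background fit. BGN, POSTN and FBN1 differed by at most 0.16 in either clone.

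**Figure D3:**
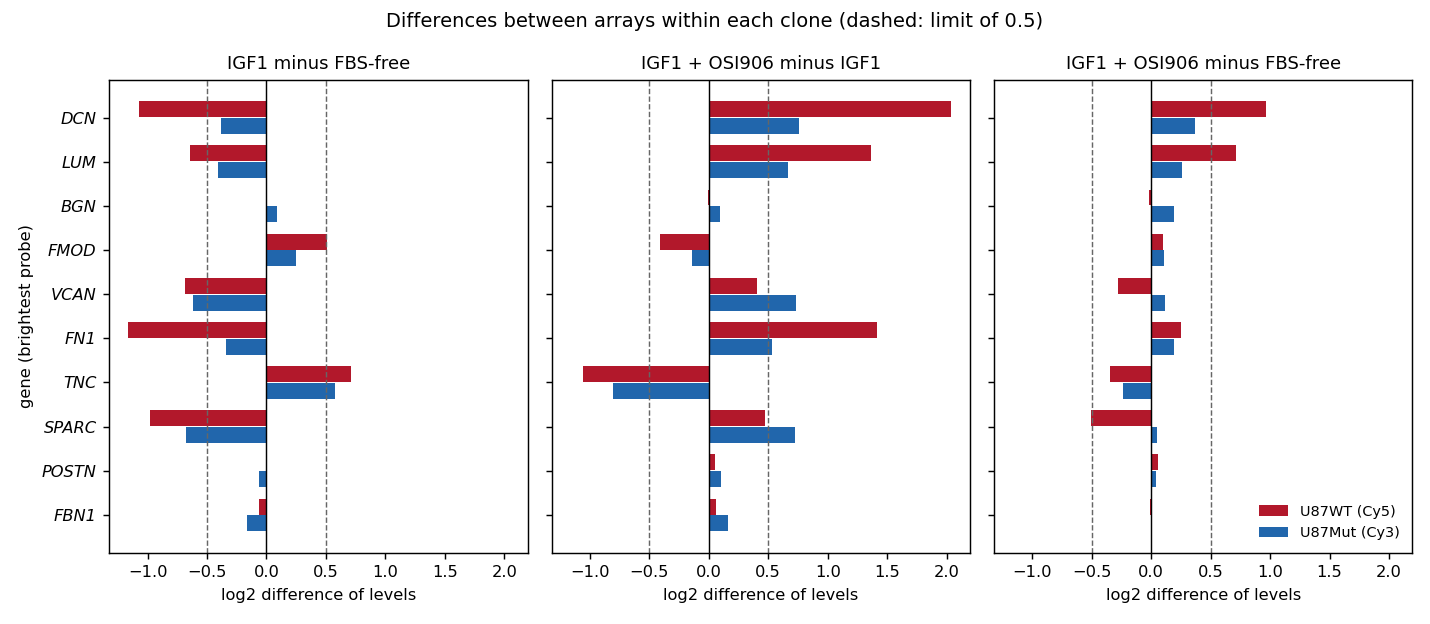
Log2 differences of levels (x axis) between the arrays named above each panel for the 10 genes (y axis), in U87WT and in U87Mut, 1 array per condition, with dashed limits at 0.5 and -0.5. DCN and FN1 have the longest U87WT bars with IGF1 and DCN, FN1 and LUM with OSI906, TNC points the other way in both of these panels, and few bars pass the limit between OSI906 and FBS-free medium.

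OSI906 was then compared with IGF1 alone. DCN, FN1 and LUM were higher in both clones when the inhibitor was present, and TNC was lower in both. In U87WT 3 of the 10 genes were above the limit (2.31% of named genes, 3.73% of the bright ones) and 1 below it (2.51% and 3.75%). In U87Mut VCAN and SPARC joined the first 3, which made 5 (1.24% and 2.02%), and 1 was below (0.672% and 1.03%). Of all named genes 0.688% were above the limit in both clones and 0.332% below it in both. The median difference of the 10 genes was 0.23 in U87WT and 0.35 in U87Mut, and that of all named genes -0.01 and 0.01. Since the IGF1 array stands in this comparison and in that of IGF1 with FBS-free medium, a value that is low on that array alone gives opposite signs in them.

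DCN was 4.10-fold higher with OSI906 than with IGF1 alone in U87WT and 1.69-fold higher in U87Mut. The log2 differences were 2.04 and 0.75, and with all spots in the background fit 3.005 and 0.36. The change of the clone ratio was 1.28. FN1 differed by 1.42 in U87WT and 0.53 in U87Mut, and LUM by 1.36 and 0.67. With all spots in the background fit the U87Mut differences of FN1 and LUM were 0.35 and 0.42, so that DCN, FN1 and LUM were then within the limit in U87Mut. The change of the clone ratio of FN1 was 0.88 and that of LUM 0.69, and 1.56% of named genes exceeded the limit as these 3 did. The change stayed past the limit for DCN, LUM and FN1 in each of the 11 settings, the one used here included, the lowest being 0.82, 0.52 and 0.66. Some of these settings repeat the ratios used here and are no separate check. TNC was lower by a log2 difference of -1.06 in U87WT and -0.81 in U87Mut. VCAN was higher by 0.41 in U87WT, within the limit, and by 0.73 in U87Mut, and SPARC by 0.47 and 0.73. Their change of the clone ratio was -0.33 and -0.25.

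The arrays with OSI906 and without FBS are the pair that leaves out the IGF1 array. Between them DCN and LUM were higher with OSI906 in U87WT, by log2 differences of 0.96 and 0.72 (1.5% of named genes), and SPARC was lower, by -0.51 (1.47%). In U87Mut none of the 10 genes passed the limit in either direction, against 0.42% of named genes above it and 0.472% below. DCN stood at 0.37 and LUM at 0.26. The clone ratio of DCN was larger with OSI906 by 0.59 (1.03%) and that of SPARC smaller, at -0.55 (0.792%). FN1, TNC and VCAN, which differed between IGF1 and either other condition, were here within the limit in both clones, at 0.25, -0.35 and -0.28 in U87WT and 0.20, -0.23 and 0.12 in U87Mut.

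The processing of the IGF1 array bears on the genes unequally. The DCN, LUM and FMOD spots had a Cy5 brightness of 441, 182 and 84 on that array, and their ratios fell to 0.58, 0.16 and 0.08 when all spots, the 572 marked ones included, entered the background fit. SPARC and TNC, at 10274 and 1943, kept ratios of 1.13 and -0.96. FN1, at 188 in Cy5 and 158 in Cy3, moved from -0.14 to -0.12. Smaller offsets moved the faint genes the other way. With an offset of 0, DCN had a ratio of 2.71 and FMOD of 1.78, since an offset added to both channels draws the ratio of faint spots towards 0.

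**Figure D4:**
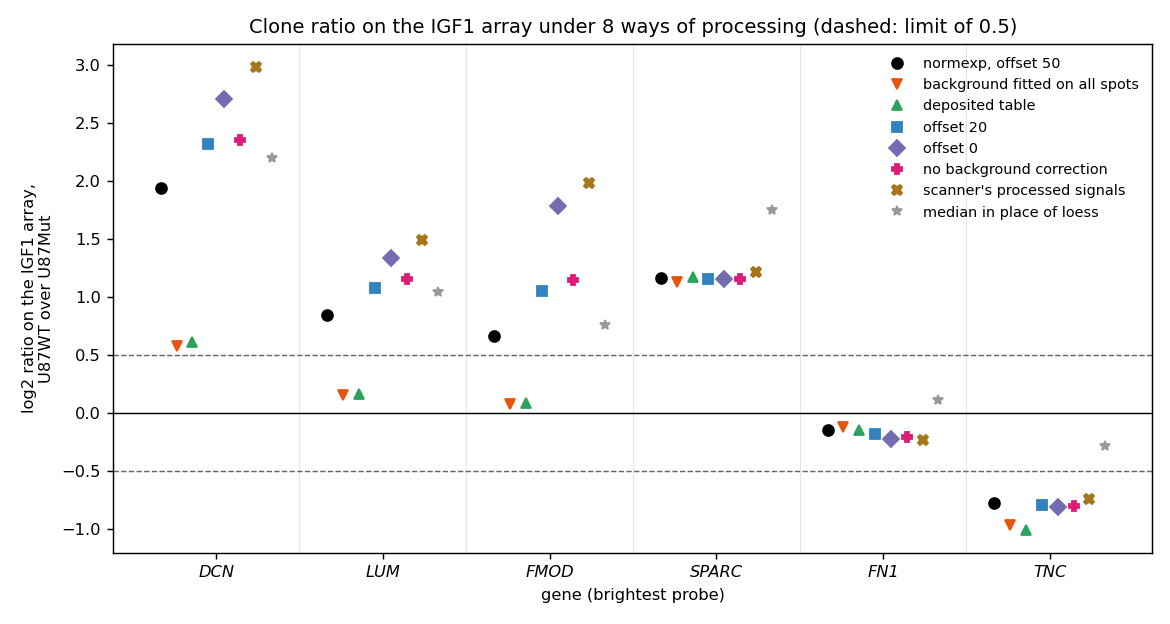
Clone log2 ratio on the IGF1 array (y axis) of 6 of the genes (x axis) under 8 ways of processing, 1 symbol per way, with dashed limits at 0.5 and -0.5. SPARC, FN1 and TNC differ little except where the median replaces loess, whereas DCN spans 0.58 to 2.98, LUM 0.16 to 1.49 and FMOD 0.08 to 1.98.

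Further genes were taken from 7 lists of related proteins, 132 genes in all, each with a probe. In FBS-free medium 19 were above the limit and 2 below (15.9% together, against 7.85% of all named genes), with IGF1 23 and 2 (18.9% against 7.7%), and with OSI906 16 and 1 (12.9% against 7.08%). The list medians lay between -0.01 and 0.17 in FBS-free medium. As the clone contrast chose the subject, these counts are a description. With all spots in the background fit the number past the limit with IGF1 was 11 in place of 25.

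The nearest relatives of decorin were mostly dim or alike in the clones. Of 14 other small leucine-rich proteoglycans, all 6 channels read 4 well above background and no channel read 5 of them so. PODNL1, podocan-like 1, was higher in U87WT at 0.95, 0.72 and 0.78 and ECM2 lower at -0.93, -0.02 and -0.41. No other gene of the list was called in FBS-free medium, where 4.08% of named genes were above the limit and 3.77% below. On the IGF1 array the PODNL1 ratio was 0.12, within the limit, with all spots in the background fit. Between the arrays PODNL1 differed in the same directions as DCN, at -1.07 in U87WT and -0.84 in U87Mut with IGF1, and 0.79 and 0.73 with OSI906 against IGF1. Of 14 other large proteoglycans and link proteins 1 passed in FBS-free medium, HSPG2 (perlecan, the basement membrane heparan sulfate proteoglycan), at 0.59, 1.03 and 0.92. The second of these was 0.53 with all spots in the background fit.

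Of 18 genes for other elastic fiber and microfibril proteins EFEMP1 (fibulin 3) had ratios of 2.03, 1.18 and 1.41 and MFAP4 of 1.44, 1.54 and 1.33, while MFAP2, which binds fibrillin microfibrils, was lower in U87WT at -1.03, -0.67 and -0.85. EFEMP1 was at 0.18 on the IGF1 array with all spots in the background fit, and MFAP4 kept 1.46. FBN1 itself, as given above, was within the limit, and so was FBN2 at -0.29, -0.07 and -0.26.

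Of 28 other adhesive and matricellular glycoproteins 9 were above the limit in FBS-free medium (4.08% of named genes) and none below (3.77%). CCN5, a member of the CCN family of matricellular proteins, had ratios of 1.64, 1.16 and 1.52, MATN2 (matrilin 2) of 1.21, 0.72 and 0.41, and NID2 (nidogen 2, a basement membrane linker) of 0.93, 0.84 and 0.50. With IGF1, 5 of the 28 were below the limit in U87WT (1.74% of named genes) and 4 in U87Mut (1.03%). None was above it in either clone (1.53% in U87WT and 0.576% in U87Mut). CCN5 differed by -1.73 in U87WT and -1.25 in U87Mut with IGF1, and by 1.70 and 1.34 with OSI906 against IGF1. TNXB, tenascin X, differed with IGF1 by 0.21 and 0.31, within the limit. On the IGF1 array the CCN5 ratio was 0.70 with all spots in the background fit, and those of MATN2 and NID2 were 0.16 and 0.23, within the limit.

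Enzymes and partners of the 10 proteins came next. Of 27 genes that build chondroitin and dermatan sulfate chains, 24 of them bright, 2 passed in FBS-free medium (4.08% of named genes were above), DSEL (dermatan sulfate epimerase like) at 0.74 and PAPSS2 (which makes the sulfate donor) at 0.70. None differed past the limit with IGF1 in either clone. The shares of named genes were 1.74% below and 1.53% above in U87WT, and 1.03% and 0.576% in U87Mut, so nothing is read from the absence. Of 11 proteases and their enhancers PCOLCE, which speeds the processing of procollagen by BMP1, had ratios of 1.05, 0.72 and 0.92, the second of them 0.17 with all spots in the background fit. PCOLCE2 had ratios of 0.68, 0.58 and 0.38, the second of them 0.25, within the limit, with that fit. BMP1 itself had 0.21, 0.15 and 0.27. Of 20 receptors and growth factors that bind the 10 proteins 2 passed in FBS-free medium (4.08% of named genes were above), the integrin subunit gene ITGAV at 0.61 and TGFB2 at 0.53.

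**Figure D5:**
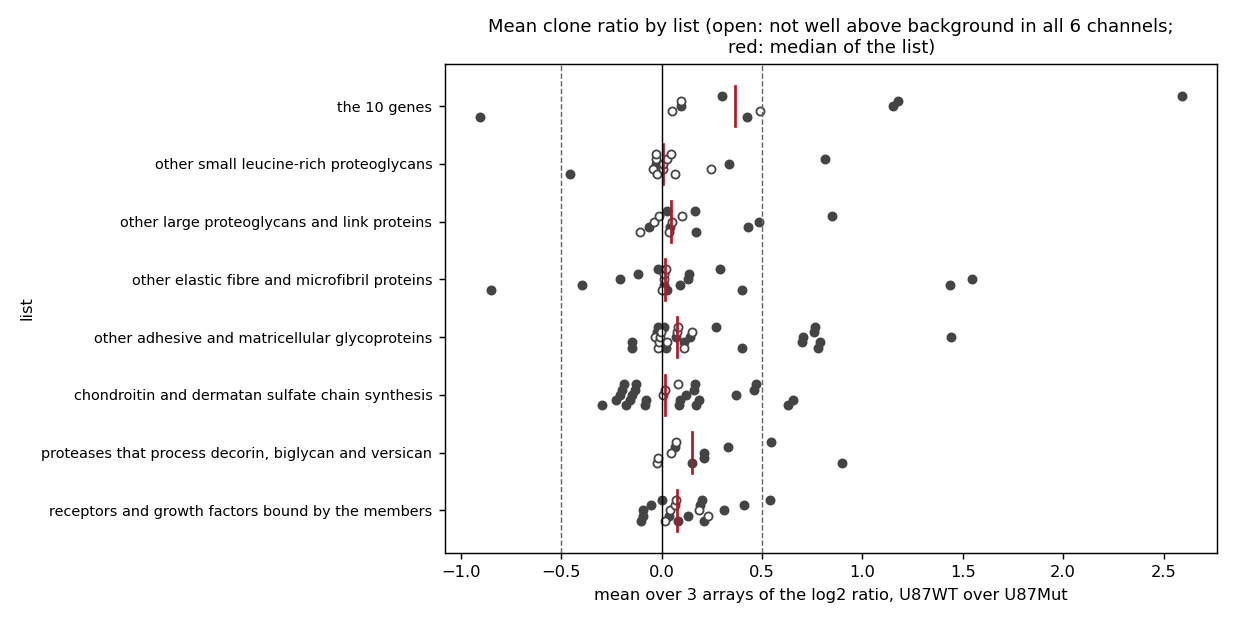
Mean of the clone log2 ratio over the 3 arrays (x axis) for each gene of the 10 and of 7 lists of related genes (y axis, points spread vertically for legibility), with open circles for genes not well above background in all 6 channels, red lines for list medians and dashed limits at 0.5 and -0.5. DCN lies farthest right of all genes shown, EFEMP1, CCN5 and MFAP4 come next, and TNC and MFAP2 lie farthest left.

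The genes whose 6 levels, each centered on its own mean, lay closest to those of DCN were APOE, TMEM119, CXCL1, SBSN and C11orf96, at Euclidean distances of 0.745, 0.976, 1.04, 1.13 and 1.22 log2 units among 16536 genes well above background in U87WT. APOE, the lipid carrier, had clone ratios of 2.74, 1.95 and 2.92, and differed by -1.02 with IGF1 and 1.22 with OSI906 against IGF1 in U87WT. CXCL1, a neutrophil chemokine, differed by -1.09 and 2.34. LUM stood 28th at a distance of 1.83, SPARC 66th at 2.15 and FN1 393rd at 2.72. The 6 values come from 3 arrays and 2 dyes, so the likeness describes these arrays.

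DCN and LUM lie side by side on chromosome 12 in a cluster of small leucine-rich proteoglycan genes with KERA (keratocan) and EPYC (epiphycan). KERA and EPYC were well above background in no channel. BTG1, an antiproliferative gene on the other side of DCN, was lower in U87WT, with ratios of -0.67, -0.84 and -0.41, and EEA1, farther on, was higher at 0.60, 0.80 and 0.50. The genes of the stretch that were well above background thus differed in both directions.

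Markers of the cell types were read in the same channels. Of 8 mesenchymal and fibroblast markers 6 were well above background in every channel. All 6 exceeded the limit in FBS-free medium (6.38% of bright genes), 5 with IGF1 (7.33%) and 5 with OSI906 (5.75%). The summed level of this list, on the unlogged scale, was 31470, 20980 and 24520 in U87WT and 17600, 13840 and 15940 in U87Mut, so it was lowest with IGF1 in both clones, as DCN, LUM and SPARC were. That order was not particular to this list. The astroglial sum was 4113, 2383 and 3298 in U87WT and 1410, 852.5 and 1562 in U87Mut, and the neuronal and immune sums were also lowest with IGF1 in both clones. The neural stem and oligodendroglial, endothelial and epithelial sums were not. COL3A1 was at background in all channels and THY1 well above it in 1. The part of the mesenchymal and fibroblast list in the differences of the 10 genes was not tested. Of 6 astroglial markers SLC1A3 alone exceeded the limit, at 1.78, 1.94 and 1.25, while GFAP and ALDH1L1 were well above background in no channel, nor were SOX2, SOX10 and PDGFRA of the neural stem and oligodendroglial list, in which no gene was called. In all 6 channels AQP4, SLC1A3 and SLC1A2 of the first list and NES, OLIG2 and CSPG4 of the second were well above background. No endothelial or immune marker was called on any array, among epithelial markers only EPCAM, with IGF1 at 0.53, and among neuronal markers SNAP25 at 1.06, 1.02 and 0.91 and RBFOX3 at -0.55 with IGF1. In RNA of whole cultures, fewer cells of a type and less RNA per cell cannot be told apart.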

How the data were processed

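RNA of both clones was hybridized together to 3 Agilent arrays (SurePrint G3, human, v3), 1 per condition. Per the file headers, the deposited intensity values are spot medians and local background medians from Agilent Feature Extraction 12.0.3.1, not normalized, with marks for spots that are not uniform, outliers, saturated or well above background. The same software gave the processed intensities, corrected for background and dye. The authors also deposited log2 ratios per probe, made with limma after background correction and normalization of kinds not given in the sources used here; their medians were -0.00661, -0.0074 and -0.00304, and scale and direction were read from the scanner values.

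In R 4.3.3 with limma 3.58.1, normexp background correction (offset 50) was used, which draws log2 values of faint spots together, fitted without the spots marked as not uniform (384, 572 and 5 of 62976 per array). Control spots had weight 0 in the loess normalization within arrays, Aquantile normalization between arrays followed, and outlier spots (95, 117 and 95) were left out. Spots of a probe were averaged, and a gene has the value of its brightest probe. Where a channel was not well above background, a fold is a bound against the higher of the lowest level well above background and the measured level. Such a bound holds within the processing used here, can be lower in another and makes no allowance for noise. Of 36770 probes with a RefSeq transcript, 34892 were named through RefSeq (GRCh38.p14). The number of arrays limits the precision. Each condition has 1 array, so nothing was tested.

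The 10 genes, the 7 lists of related genes and the cell type markers were chosen with earlier results of these data known. Named from the lists were up to 5 genes highest and 5 lowest by mean ratio among those well above background in a channel of each array with 1 sign on all, plus the 5 genes nearest to DCN and the markers, while BTG1, EEA1, KERA and EPYC were named for their place beside DCN. On simulated data the background correction and loess were tried. Of 200 changed probes per array 198, 194 and 197 passed the limit, with 117, 91 and 96 of the other probes among 60644. The changed probes were bright and had true ratios well past the limit. Normalization between arrays was not simulated, so the recovery says nothing about faint spots or about differences between arrays. Alternatives were other background fits and offsets, no background correction, the processed intensities, median in place of loess, none or quantile between arrays, the mean of probes, the deposited table, other limits, bright probes alone and leaving out an array.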

Additional observations from a re-analysis of the deposited data

How the results depend on the processing

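No paired analysis was possible because each condition has 1 array and no result comes from a test. The signs of DCN, LUM, TNC and SPARC in the clone ratio were kept on every array in all 11 settings, the one used here included. Some of these settings repeat the ratios used here and are no separate check. Of the called values 1 reversed: FMOD in U87WT with IGF1 was -0.084 with all spots in the background fit. The clone ratios of DCN in FBS-free medium, with IGF1 and with OSI906 were 2.88, 2.32 and 3.47 with an offset of 20, 3.09, 2.71 and 3.67 with an offset of 0, 2.92, 2.35 and 3.47 without background correction, 3.24, 2.98 and 3.80 from the processed intensities, 1.75, 1.11 and 2.34 with the mean of both probes, 2.84, 0.61 and 3.47 in the deposited table, 2.36 and 2.20 in the first 2 with the median in place of loess, and 0.58 with IGF1 when all spots entered the background fit. The rank of DCN by mean ratio was 5 with that fit, 5 in the deposited table, 15 from the processed intensities and 11 with the mean of probes, and it was 1 to 6 on leaving out 1 array, 1 without the IGF1 array and 6 without the array with OSI906. Without normalization between arrays the median differences of bright genes from the FBS-free array were -0.17 to -0.21, in place of values between -0.03 and 0.01.

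Counts of the 10 genes moved by over 1.5 times as follows, with the main count in brackets. With all spots in the background fit, 2 [4] were above the limit in the ratio with IGF1. With that fit 1 [2] was above in U87WT and 1 [2] below in U87Mut between the IGF1 and FBS-free arrays, and 2 [5] above with OSI906 against IGF1 in U87Mut. In the ratios deposited by the authors, 2 [4] were above in the ratio with IGF1, and in the change of the ratio 4 [2] below with IGF1 and 2 [1] above between OSI906 and FBS-free medium. With an offset of 20, 4 [2] were below with IGF1 in U87Mut and 2 [1] below with OSI906 against IGF1 in U87WT; without background correction these were 4 [2] and 2 [1]. With an offset of 0, U87Mut had 2 [1] above and 5 [2] below with IGF1 and 2 [0] above between OSI906 and FBS-free medium, U87WT had 4 [2] above there and 5 [3] above and 2 [1] below with OSI906 against IGF1, and the change of the ratio had 1 [0] above and 1 [2] below with IGF1 and 2 [1] above and 2 [1] below between OSI906 and FBS-free medium. With the processed intensities, U87Mut had 3 [1] above and 4 [2] below with IGF1, 2 [1] below with OSI906 against IGF1 and 2 [0] above between OSI906 and FBS-free medium, U87WT 5 [3] above and 2 [1] below with OSI906 against IGF1, and the change of the ratio 1 [0] below with OSI906 against IGF1 and 2 [1] above and 3 [1] below between OSI906 and FBS-free medium. With the median in place of loess, 0 [1] were below in the ratio with IGF1, 3 [5] below in U87WT and 0 [1] above and 5 [2] below in U87Mut with IGF1, 0 [1] below in U87WT between OSI906 and FBS-free medium, and in the change of the ratio 2 [0] above and 0 [2] below with IGF1, 3 [0] below with OSI906 against IGF1, and 2 [1] above and 0 [1] below between OSI906 and FBS-free medium. Without normalization between arrays, 0 [2] were above with IGF1 in U87WT, 0 [1] above and 5 [2] below in U87Mut, and 2 [1] below in U87WT between OSI906 and FBS-free medium. A limit of 0.5 SD of the array gave 8 [4] above in FBS-free medium and 2 [1] below on each of the others. A limit of 1 left in the ratios 0 [1] below in FBS-free medium, 2 [4] above and 0 [1] below with IGF1 and 2 [4] above with OSI906, with IGF1 0 [2] above and 2 [5] below in U87WT and 0 [1] and 0 [2] in U87Mut, with OSI906 against IGF1 0 [5] above and 0 [1] below in U87Mut, between OSI906 and FBS-free medium 0 [2] above and 0 [1] below in U87WT, and in the change of the ratio 0 [2] below with IGF1, 1 [3] above with OSI906 against IGF1, and 0 [1] above and 0 [1] below between OSI906 and FBS-free medium. The causes were not tested.

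Of the 132 genes of the 7 lists, 11 [25] were past the limit with IGF1 with all spots in the fit and 11 [25] in the deposited table, 43 [25] with the median in place of loess, 41 [25] and 37 [17] with IGF1 and with OSI906 at an offset of 0, 48 [21], 48 [25] and 41 [17] on the 3 arrays with the processed intensities, and 6 [21], 4 [25] and 3 [17] with a limit of 1. Faint spots, BGN, FMOD and POSTN among the 10 genes, are limited by their signal over background.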
